A study of Mus musculus with 2 samples.

Results

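Cpa3 and Cyp11a1 are 2 of the 479 genes of a Xenium In Situ panel that was run on a section of an RKP tumour and a section of an EKP tumour. Both genes were chosen by name with earlier results of these data known, so their levels and their overlap are given as a description, with no test. RKP and EKP are a pair of cultured cell lines, grown in 2D, that were put with Matrigel into both flanks of C57BL/6 mice aged 5 weeks, under the skin. The tissue is labelled diffuse gastric cancer, and the study is about a mutant RHOA. The labels do not spell out the line names, and they do not say which line carries the mutation or how many animals lie behind a section. Both tumours share the host strain, the site of injection and the paraffin block. There was 1 section per line, so no difference between lines has a replicate check, and intervals below cover counting error only.

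The RKP section held 44294494 gene counts in 255744 cells, and the EKP section 31597828 gene counts in 261111 cells. Cells with 20 or more gene counts were used unless said otherwise: 248060 cells with a median of 158 counts in RKP and 191692 cells with a median of 139 counts in EKP. Levels are counts per 1000000 gene counts of the same cells (CPM). Of the 20 negative control probes, which match no transcript, the highest had 162 counts in RKP and 311 counts in EKP. The files share 19 cell names between sections.

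Mast cells are tissue-resident immune cells that store proteases, histamine and heparin in granules and release them on stimulation. Cpa3 encodes mast cell carboxypeptidase, a zinc protease that is packed in those granules and is a defining transcript of the lineage. Cyp11a1 encodes the mitochondrial side-chain cleavage enzyme, which turns cholesterol into pregnenolone, the first step of steroid hormone synthesis in adrenal and gonad. Mouse mast cells are among the few immune cells known to transcribe Cyp11a1. Of a list of 27 mast cell genes, the panel measured 5: Cpa3, Cyp11a1, Ltc4s, Alox5ap and Mitf. Kit, Ms4a2, Tpsb2 and Cma1, which define mast cells more closely, were not among the 479 genes, so the label mast cell could be checked only in part. Of 12 genes of steroid synthesis, only Cyp11a1 was measured, and none of 7 basophil genes was.

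The genes lie on different chromosomes. In GRCm38.p6, Cpa3 (ENSMUSG00000001865) spans chromosome 3 from 20215616 to 20242209, and Cyp11a1 (ENSMUSG00000032323) spans chromosome 9 from 57998024 to 58027031. The 250 bases before each listed start are shown because cells with both genes were more frequent than expected from their shares. The ratio was 17.7 in RKP and 2.80 in EKP, though in both sections most positive cells held only one of the genes. Whether these bases bear on that was not tested. They are credited to RefSeq and run 5′ to 3′ on the strand of the gene. Capitals mark AGATAA, a core bound by GATA factors, TATAAA, the TATA box, and AGGTCA, a core bound by nuclear receptors, each on either strand.
Cpa3, chr3:20242182-20242431, minus strand: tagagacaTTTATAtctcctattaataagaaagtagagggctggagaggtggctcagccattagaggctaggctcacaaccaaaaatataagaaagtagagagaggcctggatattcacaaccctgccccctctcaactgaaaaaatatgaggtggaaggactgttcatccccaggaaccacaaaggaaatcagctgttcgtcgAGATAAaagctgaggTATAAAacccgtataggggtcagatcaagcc
Cyp11a1, first start, chr9:57997774-57998023, plus strand: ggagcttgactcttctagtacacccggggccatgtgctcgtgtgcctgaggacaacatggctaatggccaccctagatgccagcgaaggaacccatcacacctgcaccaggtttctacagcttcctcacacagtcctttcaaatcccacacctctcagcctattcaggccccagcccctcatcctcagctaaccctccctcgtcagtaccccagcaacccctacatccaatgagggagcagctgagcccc
Cyp11a1, second start, chr9:58014702-58014951, plus strand: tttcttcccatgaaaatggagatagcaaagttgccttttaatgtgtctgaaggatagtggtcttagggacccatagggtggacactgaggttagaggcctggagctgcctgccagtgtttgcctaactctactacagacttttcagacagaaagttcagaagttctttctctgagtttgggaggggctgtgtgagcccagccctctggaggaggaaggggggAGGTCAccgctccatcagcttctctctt

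The Cpa3 window held AGATAA beginning 46 bases and TATAAA beginning 31 bases before the listed start, both on the strand of the gene, and TATAAA again on the opposite strand 242 bases before it. The listed start of Cpa3 lies inside the gene span given above. Its window, from 20242182, thus overlaps that span, which ends at 20242209. Neither motif occurred in these exact letters before either start of Cyp11a1. Before its second start, AGGTCA began 28 bases upstream, and the Cpa3 window held none in these exact letters. Variants that differ by a base were not searched. AGATAG is in the window of the second start of Cyp11a1, and GGGTCA is in the Cpa3 window. The matches therefore do not set the genes apart by the factors that may bind. CANNTG, the E-box that basic helix-loop-helix factors bind, occurred 2 times before Cpa3, 3 times before the first start of Cyp11a1 and not before its second. Among 32851 listed windows of 250 bases, counting either strand, AGATAA was in 9.99%, TATAAA in 12.4%, AGGTCA in 14.0% and CANNTG in 66.2%. The motifs do not overlap each other in these windows, and a match describes letters only.

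Summed over all cells, Cpa3 had 10374 counts in RKP (234 CPM) and 3605 counts in EKP (114 CPM), a ratio of 2.05 (95% interval 1.98 to 2.13). Cyp11a1 went the other way on this scale, with 5893 counts in RKP (133 CPM) and 5318 counts in EKP (168 CPM), a ratio of 0.790 (0.762 to 0.820). Cpa3 passed a 2-fold difference and Cyp11a1 did not. By the same rule, 8.18% of 477 panel genes were higher in RKP and 34.8% were higher in EKP. Both genes lay well above the control probes, Cpa3 64.0 times the highest probe in RKP and 11.6 times in EKP, Cyp11a1 36.4 times in RKP and 17.1 times in EKP.

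These section ratios depended on how cells were weighted. As counts per cell, Cpa3 was 2.94 times as high in RKP as in EKP, and Cyp11a1 turned to 1.13. With every cell weighted alike, Cpa3 turned to 0.664 and Cyp11a1 stood at 0.622. Small cells moved with this: cells under 20 gene counts held 1.45% of the Cpa3 counts in RKP and 26.8% in EKP, and 1.48% of the Cyp11a1 counts in RKP and 10.9% in EKP. Over cells with 20 or more counts, Cpa3 stood at 231 CPM in RKP and 85.3 CPM in EKP, and Cyp11a1 at 131 CPM in RKP and 153 CPM in EKP. In a bulk sum of this kind, fewer cells with a gene and fewer transcripts per cell cannot be told apart, which the counts per cell address.

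Most Cpa3 counts lay in cells with 3 or more counts in RKP and in cells with a single count in EKP. In both sections, more cells reached 3 counts than a spread in proportion to cell depth would give. At least 1 Cpa3 count was found in 4002 RKP cells (1.61%, 95% Clopper-Pearson interval 1.56 to 1.66%) and 2046 EKP cells (1.07%, 1.02 to 1.11%). At 3 or more Cpa3 counts there were 924 cells in RKP (0.372%, 0.349 to 0.397%) and 83 cells in EKP (0.0433%, 0.0345 to 0.0537%), so that the share in RKP was 8.60 times that in EKP (6.87 to 10.9). The tail reached 33 counts in RKP and 29 counts in EKP. If the same Cpa3 counts had been spread over cells in proportion to their depth, 6.47 cells would have reached 3 counts in RKP and 0.238 cells in EKP. A single Cpa3 count was all that 63.9% of the positive cells had in RKP and 89.9% in EKP, and such cells held 25.0% of the Cpa3 counts in RKP and 69.7% in EKP.

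Just below the limit of 3, 521 cells had 2 Cpa3 counts in RKP and 123 in EKP, and just above it 241 cells had 3 counts in RKP and 31 in EKP. Cells with 12 or more Cpa3 counts numbered 160 in RKP, where they held 25.4% of the counts, and 14 in EKP, where they held 9.09%. The variance of Cpa3 over its mean was 7.36 in RKP, within the 1.14 to 11.7 of the 20 panel genes nearest in total count. In EKP it was 3.24, above the 1.04 to 2.40 of the 20 nearest genes there.

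Cyp11a1 was spread differently. It was detected in 3405 RKP cells (1.37%, 1.33 to 1.42%) and in 3883 EKP cells (2.03%, 1.96 to 2.09%), a ratio of 0.678 (0.647 to 0.710), but 3 or more counts were reached by 536 cells in RKP and 169 cells in EKP, a ratio of 2.45 (2.06 to 2.93). Its highest count in a cell was 19 in RKP and 8 in EKP. Cells with a single count held 40.6% of the Cyp11a1 counts in RKP and 69.4% in EKP. Its variance over mean was 2.96 in RKP and 1.51 in EKP, inside the range of the 20 nearest genes in both sections (1.07 to 10.4 and 1.07 to 3.58).

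Cell depth bears on these shares. Cells positive for Cyp11a1 had a median of 162 gene counts in RKP and 259 in EKP, and cells positive for Cpa3 a median of 154 in RKP and 55 in EKP. With cells of at least 40 counts thinned to 40 apiece, Cyp11a1 was detected in 0.544% of 235115 RKP cells and 0.534% of 161996 EKP cells, a ratio of 1.02 (0.934 to 1.11), so its lower share in RKP was not detectable at matched depth. At 3 or more counts after thinning, Cyp11a1 was in 0.0519% of RKP cells (122 cells) and 0.0037% of EKP cells (6 cells), a ratio of 14.0 (6.25 to 38.9), against 2.45 before thinning. Cpa3 kept its difference after thinning, at 0.717% in RKP and 0.393% in EKP, a ratio of 1.83 (1.67 to 2.00). Cells with 3 or more Cpa3 counts after thinning were 0.132% of RKP cells and 0.0179% of EKP cells, a ratio of 7.37 (5.03 to 11.2).

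**Figure D1:**
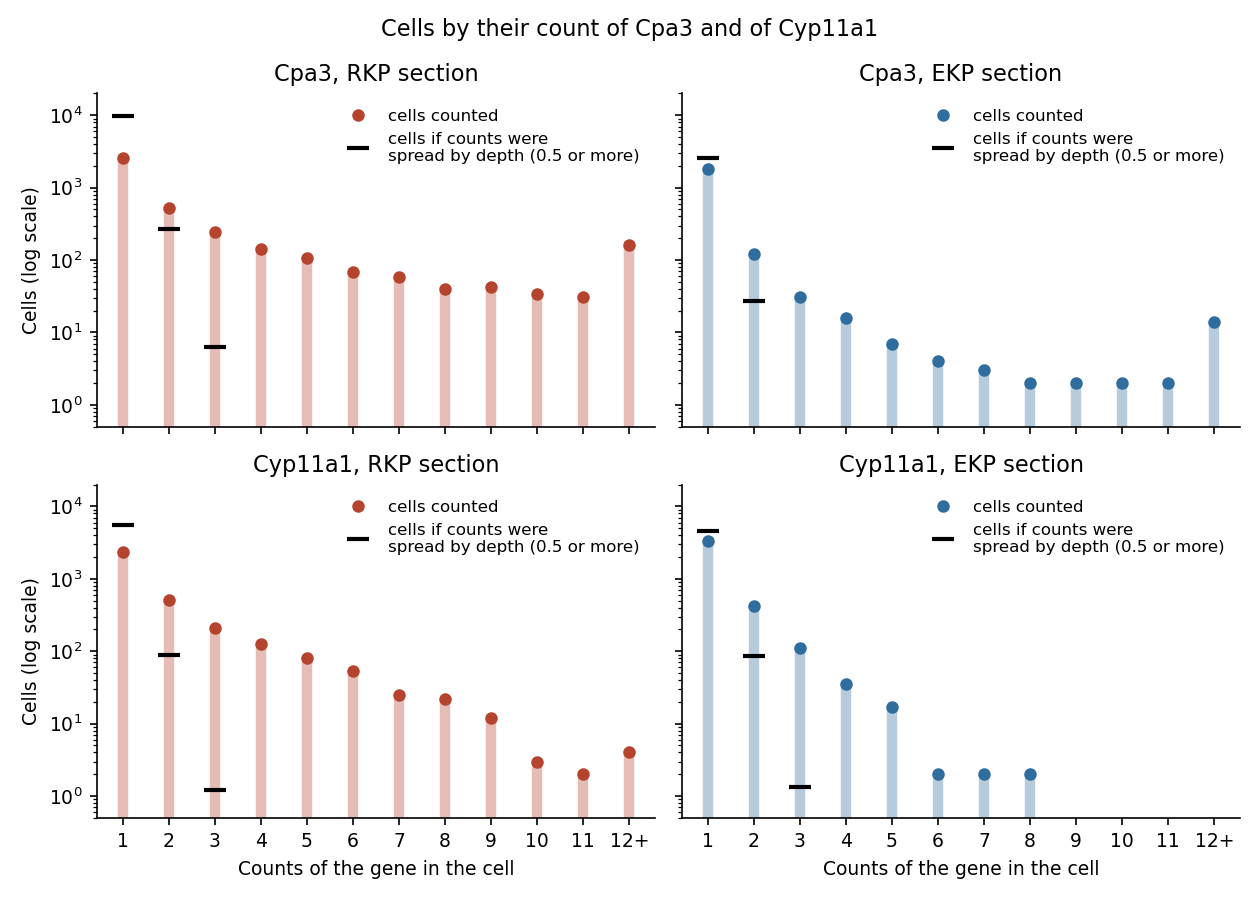
Number of cells (log scale) at each count of Cpa3 (top) and Cyp11a1 (bottom) in the RKP (left) and EKP (right) sections, cells with 20 or more gene counts, with 12 or more counts pooled and black marks for the number expected if the gene's counts were spread by cell depth. Cells with 3 or more Cpa3 counts number 924 in RKP against 6.47 expected, and 83 in EKP against 0.238 expected.

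Cpa3 and Cyp11a1 were found in the same cells far more often in RKP than their shares give. In RKP, 971 cells held both genes, against 54.9 expected from the product of the detection shares, a ratio of 17.7. In EKP, 116 cells held both, against 41.4 expected, a ratio of 2.80. Within 10 bins of cell depth the ratios were 17.8 in RKP and 3.67 in EKP. Cyp11a1 was in 24.3% of Cpa3-positive cells in RKP (22.9 to 25.6%), against 0.997% of cells without Cpa3. In EKP it was in 5.67% of Cpa3-positive cells (4.71 to 6.76%), against 1.99% of cells without Cpa3. Read from the other gene, 28.5% of Cyp11a1-positive cells held Cpa3 in RKP (27.0 to 30.1%) and 2.99% in EKP (2.47 to 3.57%).

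The same ratio for other panel genes gives the scale. In RKP, 8.26% of 472 genes reached 2 times their expectation with Cpa3 and 7.02% of 470 with Cyp11a1, and each of the members ranked first among the partners of the other. In EKP, 37.8% of 476 genes reached 2 times with Cpa3 and 14.9% of 478 with Cyp11a1, and Cyp11a1 ranked 126 among the partners of Cpa3, while Cpa3 ranked 23 among those of Cyp11a1. In EKP, cells positive for Cpa3 were shallow and cells positive for Cyp11a1 deep, and the order changed at matched depth. Within the depth bins each gene ranked 1 among the partners of the other in EKP too: the ratio of Cyp11a1 with Cpa3 stood at 3.67, and the next, Car3, at 3.06. After thinning to 40 counts the ratio was 38.7 in RKP and 9.72 in EKP. Over all RKP cells the Pearson correlation of the counts was 0.531, and over EKP cells 0.114, where the points are cells of 1 section that share its depth.

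In both sections Cyp11a1 was detected in more of the cells the more Cpa3 they held. In RKP the share with Cyp11a1 was 0.997% at 0 Cpa3 counts, 9.43% at 1, 28.2% at 2, 42.9% at 3 to 4, 66.2% at 5 to 9, 92.2% at 10 to 19 and 96.9% at 20 or more (31 of 32 cells). In EKP it was 1.99% at 0, 3.37% at 1, 8.94% at 2, 36.2% at 3 to 4, 55.6% at 5 to 9, 85.7% at 10 to 19 (12 of 14 cells) and 100% at 20 or more (4 of 4 cells). From 3 Cpa3 counts upward the intervals of both sections overlap at every step, and at 1 and 2 Cpa3 counts the RKP share lies above the EKP interval. Turned round, the sections part. Of cells with 3 to 4 Cyp11a1 counts, 49.4% held Cpa3 in RKP (43.9 to 54.9%) and 7.53% in EKP (3.82 to 13.1%). Of cells with 5 to 9, 65.8% did in RKP and 13.04% in EKP (3 of 23 cells).

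**Figure D2:**
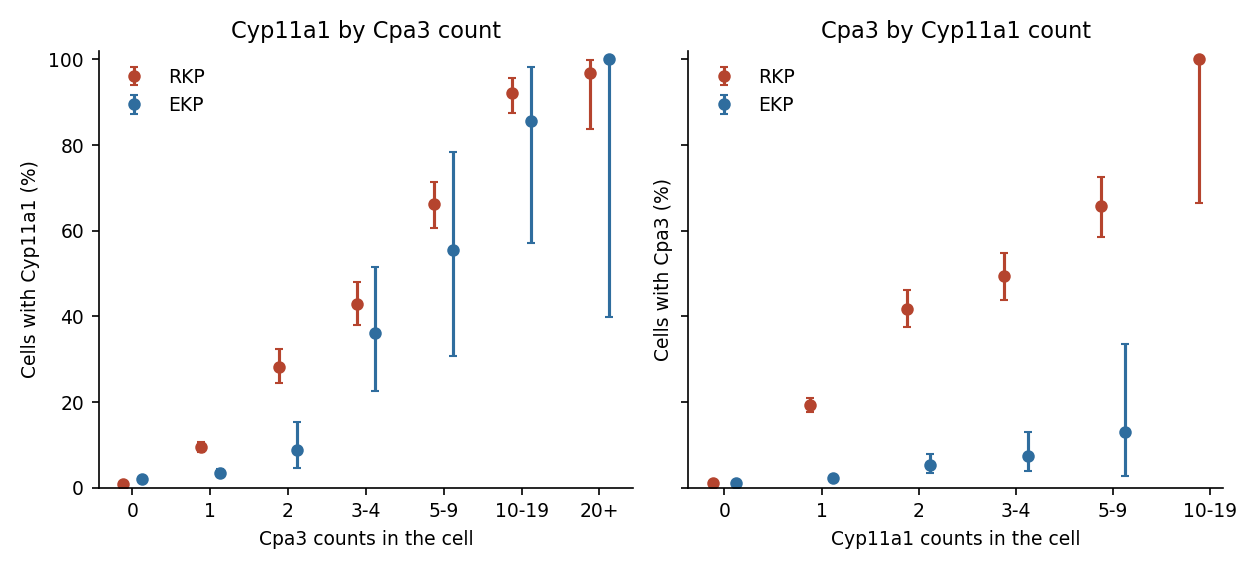
Share of cells (%) with Cyp11a1 by their Cpa3 count (left panel), and with Cpa3 by their Cyp11a1 count (right panel), with exact 95% intervals, RKP in red and EKP in blue. From 3 Cpa3 counts upward the sections run together in the left panel, while in the right panel RKP lies above EKP from 1 Cyp11a1 count upward, at 49.4% against 7.53% for 3 to 4 counts.

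Cells with 3 or more Cpa3 counts, called gated cells below, held most of the Cpa3 in RKP and a smaller part of it in EKP. The 924 RKP gated cells held 6625 of 10224 Cpa3 counts (64.8%, 63.9 to 65.7%), and the 83 EKP gated cells held 553 of 2639 (21.0%, 19.4 to 22.6%). The gate used these Cpa3 counts, so their share is a description of how the gene is packed. Cyp11a1, which the gate did not use, had 1648 of its 5806 counts in RKP gated cells (28.4%, 27.2 to 29.6%) and 84 of its 4740 counts in EKP gated cells (1.77%, 1.42 to 2.19%). Gated cells made up 0.351% of all gene counts in RKP and 0.0205% in EKP. Relative to all gene counts, Cyp11a1 in gated cells stood at 10627 CPM in RKP and 13239 CPM in EKP, a ratio of 0.803 (0.644 to 1.01) whose interval includes no difference. It was detected in 63.1% of gated cells in RKP (59.9 to 66.2%) and 51.8% in EKP (40.6 to 62.9%), with median depths of 149 and 60 counts, beside 1.14% of other cells in RKP and 2.00% of other cells in EKP.

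Per gated cell, Cpa3 averaged 7.17 counts in RKP and 6.66 in EKP, and Cyp11a1 1.78 in RKP and 1.01 in EKP. There were 24.9 Cyp11a1 counts for every 100 Cpa3 counts in RKP gated cells and 15.2 in EKP gated cells. Outside the gate that figure was 116 in RKP and 223 in EKP. The probes of the genes may differ in yield, so only the change of this figure between sets of cells can be read. Raising the limit to 5 Cpa3 counts left it at 25.3 in RKP and 14.9 in EKP gated cells, and lowering it to 2 gave 24.8 in RKP and 13.02 in EKP.

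Of the other mast cell genes measured, Alox5ap and Mitf were higher in gated cells of both sections and Ltc4s was not. Alox5ap, which presents arachidonic acid to the leukotriene-forming lipoxygenase, stood at 13715 CPM in RKP gated cells and 5061 in other RKP cells (ratio 2.71, 2.60 to 2.83), and at 10717 CPM in EKP gated cells and 3528 in other EKP cells (3.04, 2.36 to 3.85). Between the gates, its ratio of RKP over EKP was 1.28 (1.01 to 1.65). Mitf, a transcription factor needed for mast cell development, had ratios of 2.66 in RKP (2.37 to 2.98) and 3.39 in EKP (1.94 to 5.51). Ltc4s, leukotriene C4 synthase, had a ratio of 0.552 in RKP (0.342 to 0.845), and in EKP it had 1 count in gated cells (0.753, 0.0191 to 4.20). Alox5ap was also in 38.2% of other RKP cells and 27.3% of other EKP cells, so it does not single out mast cells. At 2-fold or more, 14.3% of 462 ranked panel genes were higher and 27.5% lower in RKP gated cells, and 20.8% of 477 were higher and 52% lower in EKP gated cells.

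The genes that ranked highest in RKP gated cells were Muc13, a membrane mucin, Gzmb, the granule protease granzyme B, which killer lymphocytes and some mouse mast cells make, Cux2, a homeobox factor, and Scin, an actin-severing protein. Muc13 stood at 1457 CPM in gated cells and 14.4 in other cells (ratio 101, 86.5 to 118), and Gzmb at 15437 and 306 CPM (50.4, 48.2 to 52.6). Cux2 rested on 19 counts in gated cells (46.5, 27.0 to 76.0). Scin had a ratio of 9.10 (8.38 to 9.87). Abcb11, the bile salt export pump, and Scgb3a2, a secretoglobin, followed on 3 and 2 counts, and Ambp, a plasma protein precursor, and Agr2, a folding enzyme of secretory cells, had ratios of 5.38 and 4.89. Gzmb followed the Cpa3 count: it stood at 287 CPM in RKP cells with no Cpa3, 1397 CPM at 1 count, 4467 at 2, 6697 at 3 to 4, 13394 at 5 to 9, 33556 at 10 to 19 and 38474 at 20 or more.

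No Gzmb was counted in EKP gated cells. It had 0 of their 6345 gene counts, which allows up to 473 CPM, so RKP gated cells stood at least 32.6-fold higher. Other EKP cells had 183 CPM of Gzmb, so at this depth a lower level in gated than in other EKP cells was not detectable. Below the gate, Gzmb in EKP stood at 182 CPM at 0 Cpa3 counts, 327 at 1 and 633 at 2 (123 cells). Scin had 604 counts in RKP gated cells and 1 count in EKP gated cells (ratio 24.7, 4.42 to 978). Muc13 was high in both gates, with 4 counts in EKP gated cells (630 CPM) against 39.8 CPM in other EKP cells (15.9, 4.31 to 40.7), the second highest ratio there.

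The 8 genes that ranked highest in EKP gated cells rested on 2 to 18 counts. Besides Muc13 they were Cd5l, a secreted scavenger protein of macrophages, at 9 counts (ratio 26.6, 12.1 to 50.5), then Fam183b and Dynlrb2 on 2 and 3 counts (12.98 and 11.8), Lyve1, a hyaluronan receptor of lymphatic vessels and some macrophages, at 18 counts (10.9, 6.46 to 17.3), Reg3g, a secreted lectin, at 11 counts (10.4, 5.18 to 18.6) and Car3, a carbonic anhydrase, at 11 counts (9.99, 4.99 to 17.9), and Dsc3 on 3 counts (9.28). Of the genes at 2-fold or more, 66 in RKP and 99 in EKP, 24 were in both sets. That is 36.4% of the RKP set, while 20.8% of all 477 ranked genes were in the EKP set. It is 24.2% of the EKP set, while 14.3% of all 462 ranked genes were in the RKP set.

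Gated cells of the sections differed in counts of genes known from other cell types. Krt8, a keratin of simple epithelium, stood at 24148 CPM in RKP gated cells and 24730 in other RKP cells, but at 3152 CPM in EKP gated cells and 25455 in other EKP cells. Epcam, an epithelial adhesion molecule, was in 46.3% of RKP gated cells and 2.41% of EKP gated cells. F13a1, a transglutaminase of resident macrophages, stood at 1825 CPM in RKP gated cells and 27108 in EKP gated cells (ratio 0.0673, 0.0555 to 0.0818), and Dpt, a fibroblast matrix protein, at 600 and 10402 CPM (0.0577, 0.0416 to 0.0803). Krt8, Epcam, F13a1, Dpt, Serpina3n, Cd209a, Ctla2a and Laptm5 were picked after their values were seen.

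For the marker lists, 6 epithelial genes summed to 67364 CPM in RKP gated cells and 92333 in other RKP cells, and to 6304 CPM in EKP gated cells and 89813 in other EKP cells. At 2-fold or more, 1 of the 6 was lower in RKP gated cells and 6 of 6 in EKP gated cells, 1 of them at 0. The 5 fibroblast genes summed to 25064 and 35812 CPM in RKP and to 117415 and 55603 CPM in EKP, gated cells first. The 7 macrophage genes gave 28746 and 39035 CPM in RKP, and 38928 and 28592 CPM in EKP. The 4 T cell genes measured were lower by 2-fold or more in RKP gated cells (619 CPM in sum, against 1401 CPM in other RKP cells). In EKP gated cells they had no counts, as had 180 of 477 ranked genes (37.7%), and the 473 CPM that 0 counts allow lies above the level of each of the 4 in other EKP cells. Whether transcripts of neighbouring cells were assigned to gated cells was not tested. Gated cells had a median of 149 gene counts and 61 genes in RKP, and of 60 gene counts and 33 genes in EKP. Their 20 control probes summed to 19.3 CPM in RKP and 315 CPM in EKP (2 counts).

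**Figure D3:**
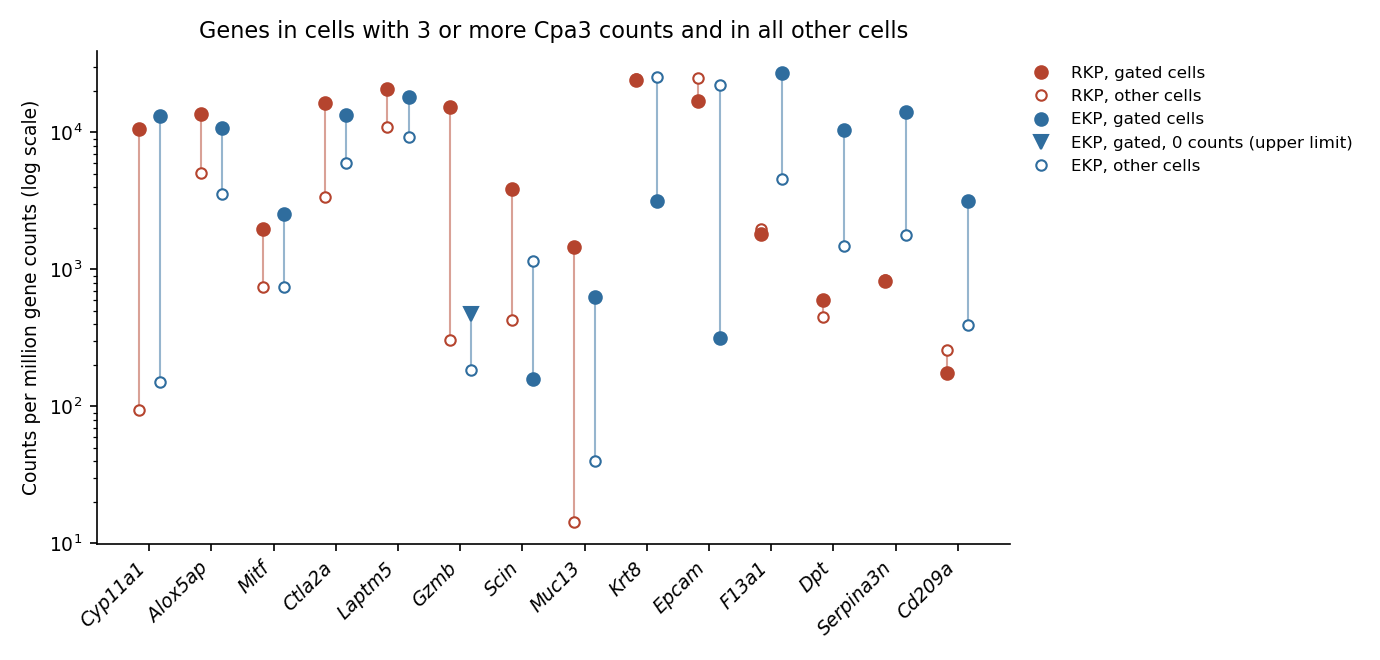
Level (CPM, log scale) of 14 genes in gated cells (filled) and in all other cells (open) of the RKP (red, left of each pair) and EKP (blue) sections; the triangle is the upper limit where EKP gated cells had 0 counts. Cyp11a1, Alox5ap and Mitf are above other cells in both gates, Gzmb and Scin stand at 15437 and 3895 CPM in the RKP gate and at 0 and 158 CPM in the EKP gate, and F13a1, Dpt, Serpina3n and Cd209a are higher in the EKP gate.

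Outside the gate, Cpa3 stood at 81.7 CPM in RKP and 67.5 CPM in EKP (ratio 1.21, 1.15 to 1.28) and Cyp11a1 at 94.4 CPM in RKP and 151 CPM in EKP (0.627, 0.601 to 0.654). To see which cells held these counts, both sections were clustered together without Cpa3 and Cyp11a1, and clusters were named from marker genes where the markers allowed it. Among 16 clusters, the level of Cpa3 outside the gate ran from 22.0 to 420 CPM in RKP and, over the 15 clusters with more than 3 EKP cells, from 7.70 to 556 CPM in EKP. For Cyp11a1 the range was 30.4 to 782 CPM in RKP and 23.7 to 450 CPM in EKP.

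In EKP, most Cyp11a1 counts outside the gate lay in epithelial-like cells with little Cpa3. Cluster 11, epithelial-like and led by Gpa33, a cell-surface antigen of gut epithelium, Acan and Ivl, held 3207 of the 4656 Cyp11a1 counts outside the EKP gate (68.9%) at 316 CPM, in 6.57% of its 38221 cells (6.32 to 6.82%). The same cells had 86 Cpa3 counts (8.48 CPM), among the lowest levels of Cpa3 in EKP, and none of them was gated. Cluster 6, an unnamed cluster of shallow cells, held another 690 Cyp11a1 counts (14.8%) at a higher level, 450 CPM, together with the most Cpa3. The genes whose EKP counts correlated most with Cyp11a1 were Cldn4, a tight junction claudin (Pearson 0.203), Epcam (0.178) and Cdh1, E-cadherin (0.166), over 191692 cells of 1 section. These correlations are weak and the genes share cell depth.

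Over all epithelial-like clusters, Cyp11a1 stood at 72.0 CPM in RKP and 304 CPM in EKP, which is 4.22-fold higher in EKP (3.97 to 4.50). Cluster 12, led by Sftpd, Cldn2 and Muc4, held most of these cells in RKP (59149) and cluster 11 in EKP (38221). Within cluster 11 Cyp11a1 was in 1.61% of RKP cells (1.36 to 1.89%) and 6.57% of EKP cells, and within cluster 12 in 1.67% of RKP cells (1.57 to 1.77%) and 4.403% of the 636 EKP cells (2.95 to 6.30%). After thinning to 40 counts the share of epithelial-like cells with Cyp11a1 was 0.306% in RKP (0.269 to 0.347%) and 1.17% in EKP (1.07 to 1.28%). Cpa3 ran opposite in the same cells, at 40.3 CPM in RKP and 9.93 CPM in EKP, a ratio of 4.06. These levels leave out unnamed cluster 6, whose Krt8 and Epcam lay above the median cluster. There Cpa3 was higher in EKP, at 228 CPM in RKP and 556 CPM in EKP outside the gate. The Cpa3 ratio therefore depends on which clusters are counted as epithelial. Unnamed clusters 13 and 14, with Krt8 above the median cluster but Epcam below it, are left out too. In these, Cyp11a1 outside the gate was higher in RKP. Cluster 13 had 79.8 CPM in RKP and 34.6 CPM in EKP (3 counts), and cluster 14 had 83.1 and 23.7 CPM. The higher Cyp11a1 of EKP was thus not shared by all clusters with raised Krt8.

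In RKP no single cluster held most of the Cyp11a1, though its level in cluster 0 was the highest of either section. The 4158 Cyp11a1 counts outside the RKP gate were divided between cluster 12 (27.2%, at 78.5 CPM, while the cluster held 32.6% of the gene counts), an unnamed cluster 0 led by Retnla, Serpina3n, Car3 and Cd209a (21.1%, at 782 CPM in 2.55% of the gene counts) and an unnamed cluster 13 led by Ptn and Hey1 with Krt8 but little Epcam (10.3%, at 79.8 CPM). Fibroblast-like cells had 323 CPM of Cyp11a1 in RKP and 42.9 CPM in EKP. Cluster 0 differed too, at 782 CPM in RKP and 43.7 CPM in EKP.

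Outside the RKP gate, Cpa3 was spread over several clusters. Cluster 13 held 27.0% of its counts at 181 CPM, cluster 12 held 18.5% at 46.2 CPM and cluster 0 held 13.1% at 420 CPM. The same 3 clusters held 30.1%, 18.9% and 7.47% of the gated cells, and T cell-like cluster 9, among whose leading genes is Gzmb, held 15.8% of the gated cells and 2.42% of the Cpa3 counts outside the gate. In EKP, 59.0% of the gated cells lay in cluster 0, 18.1% in fibroblast-like cluster 3 and 13.3% in cluster 6. The EKP Cpa3 outside the gate lay first in cluster 6 (40.8%, at 556 CPM), then in cluster 0 (19.8%, at 179 CPM), fibroblast-like cluster 3 (9.204%) and neutrophil-like cluster 5 (8.87%).

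Cluster 6 stood apart in depth. Its 27079 EKP cells had a median of 31 gene counts, and its control probes summed to 242 CPM, against 18.1 CPM in cluster 11. Its leading genes Pvalb, Hsd3b4 and Car3 belong to no single cell type, and the naming rule gave it no name. Over both sections it nevertheless had 53242 CPM of Krt8 and 41418 CPM of Epcam. The medians over clusters were 10556 CPM of Krt8 and 5953 CPM of Epcam. Across EKP cells outside the gate, Cpa3 was at 931 CPM in cells of 20 to 39 gene counts and at 8.85 CPM in cells of 320 or more, and the summed control probes went with it, at 393 and 16.7 CPM. In RKP the same depths gave 453 and 33.2 CPM of Cpa3 and 54.4 and 12.1 CPM of control probes. Cyp11a1 in EKP did not follow this order, at 583 CPM in cells of 20 to 39 counts, 77.2 CPM, the lowest of 5 depth bins, in the bin that starts at 80 and 221 CPM in cells of 320 or more. Without cluster 6, Cpa3 outside the gate was 1.93 times as high in RKP as in EKP, and over cells of 40 or more counts 1.79 times. Both alternatives were chosen after seeing the data. How much of the low EKP level is background signal was not tested.

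**Figure D4:**
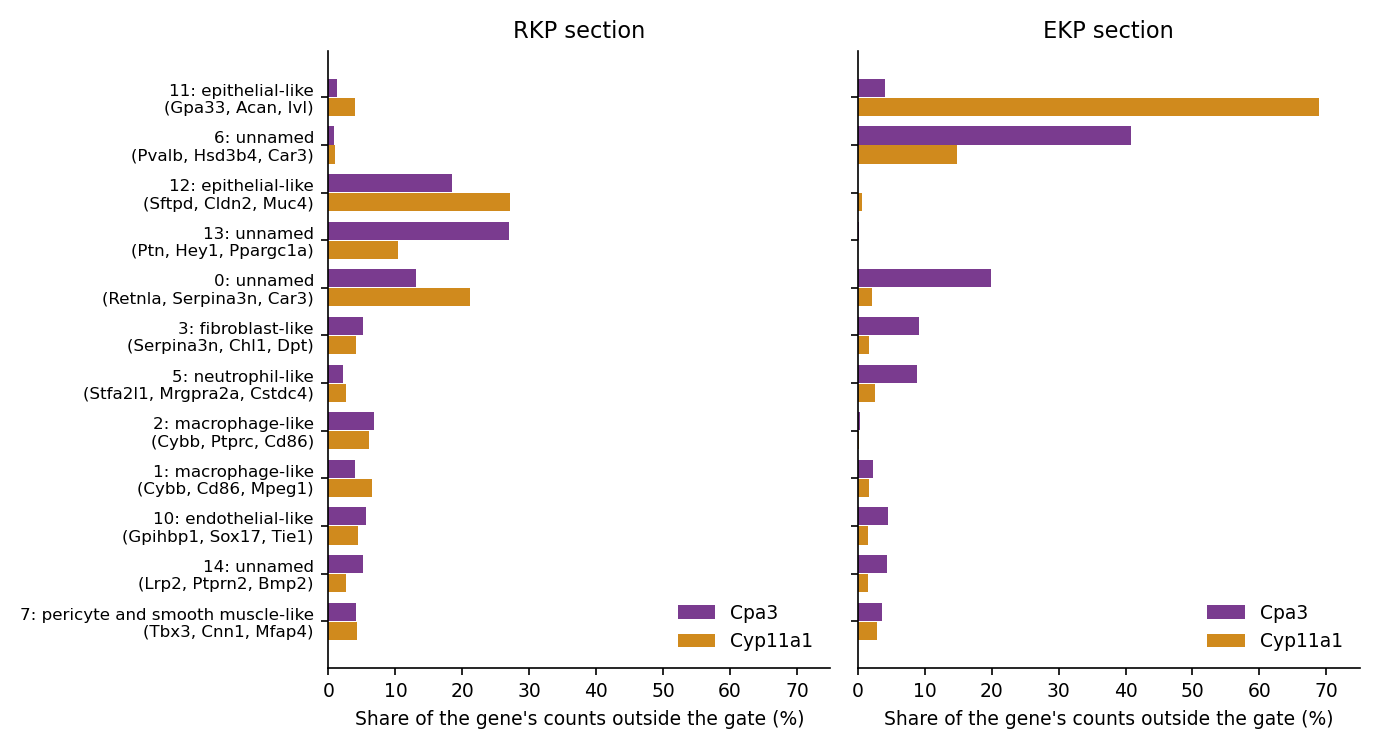
Share (%) of the Cpa3 (purple) and Cyp11a1 (orange) counts outside the gate that each cluster held in the RKP (left) and EKP (right) sections, for the 12 clusters with at least 4% of either gene in a section, with 3 leading genes each. In EKP, cluster 11 held 68.9% of Cyp11a1 and cluster 6 held 40.8% of Cpa3, while RKP counts were divided among clusters 12, 13 and 0.

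Cells with 3 or more Cyp11a1 counts and no Cpa3 were picked out after the values above were seen. There were 235 in RKP and 155 in EKP, and they were of different kinds. In RKP, 41.3% lay in cluster 0 and they held Satb1, a chromatin organiser of lymphocytes and other cells, at 4244 CPM against 213 CPM in other cells (ratio 19.9, 16.5 to 23.8), Cxcr2, a chemokine receptor, with a ratio of 9.04 (7.93 to 10.3), Alox5ap with 5.29 (4.92 to 5.67), and Gzmb with 4.81 (3.57 to 6.35). By list, 3 of 5 fibroblast genes were higher by 2-fold or more in these RKP cells (62929 CPM in sum, against 35757 CPM in other cells), with a median ratio of 2.67 against 0.731 over all ranked genes. Of the 4 neutrophil genes, Cxcr2 among them, 1 was higher and 1 lower, with a median ratio of 0.734. Of 5 squamous epithelial genes 2 were higher and 2 lower, at 4796 CPM in sum against 2402 CPM. By ratio Satb1 ranked 2 and Alox5ap 26. Kcnj16, Cnfn, Fam25c, Abcb11, Chodl and Sftpb were also among the 8 highest, on 1 to 5 counts. So was Them5, on 26 counts (10.6, 6.95 to 15.6). The median depth of these RKP cells was 101 counts, and Epcam had a ratio of 0.439. In EKP, 85.8% lay in cluster 11, their median depth was 359 counts, and Krt16 (3.98), Omp (3.22), Cldn4 (3.20) and Ivl (3.00), an envelope protein of stratified epithelium, were among their 6 highest genes by ratio. Alox5ap was lower in these EKP cells (0.287, 0.215 to 0.375). At 2-fold or more, 18.4% of panel genes were higher and 34.8% lower in the RKP cells, and 8.39% were higher and 54.7% lower in the EKP cells.

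Gated cells were not spread evenly along the cell list, which is ordered by cell name. The sources used here do not say how the names relate to place in the section. In 10 successive parts of the list the gated cells numbered 18 to 208 in RKP and 0 to 35 in EKP. Another gated cell stood within 5 places of 43.4% of gated cells in RKP (40.2 to 46.7%) and 22.9% in EKP (14.4 to 33.4%). Cells with 2 Cpa3 counts were as near in RKP, at 41.7% (37.4 to 46.0%), and cells with 1 count stood at 24.0% (22.4 to 25.7%), against 2.54% of cells with no Cpa3. In EKP the shares were 14.6% at 2 counts (8.91 to 22.1%), 4.46% at 1 count (3.56 to 5.50%) and 0.330% with no Cpa3. Cyp11a1-positive cells without Cpa3 were close to gated cells in 6.08% of cases in RKP (5.16 to 7.10%) and in 0.133% in EKP (0.0431 to 0.309%), below the EKP cells with no Cpa3. These shares move with the number of gated cells, which were an 8.60 times larger share in RKP. Relative to cells with no Cpa3 in the same section, cells with 1 Cpa3 count were near a gated cell 9.45 times as often in RKP and 13.5 times as often in EKP.

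**Figure D5:**
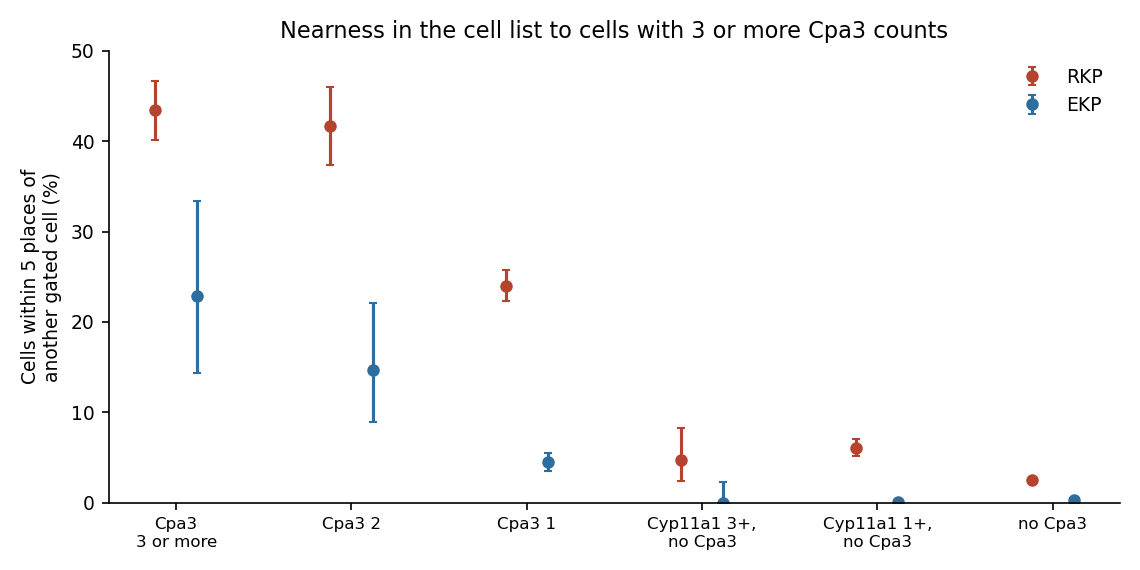
Share (%) of cells within 5 places of another gated cell in the cell list, by their Cpa3 and Cyp11a1 counts, with exact 95% intervals, RKP in red and EKP in blue. In RKP, cells with 2 Cpa3 counts (41.7%) lie beside gated cells (43.4%), and in both sections cells with Cyp11a1 but no Cpa3 lie far below them.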

How the data were processed

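The authors deposited a matrix of raw counts per cell and feature for each section, with 479 genes and 20 negative control probes, per the file headers and feature lists. Per the labels' protocols the assay was Xenium In Situ on paraffin sections with 379 panel genes and 100 added genes. The submitters' processing notes list Seurat 4.4.0 without saying what it did. The sources used here do not say how cells were segmented or transcripts filtered, and both steps can move transcripts between neighbouring cells. Count sums, shares and ratios were computed with Python 3.11.15, numpy 2.4.6 and scipy 1.17.1, and Leiden clusters with scanpy 1.11.5 and igraph 0.11.9 (30 principal components, 15 neighbours, resolution 1). A cluster was named where 3 or more markers of a list, no fewer than the remainder, had 100 CPM and 2 times the median cluster, the list led the next by 0.5 (log2), and its own markers, no fewer than those of another list, were among the 10 leading genes. Cluster 12 was named because all its markers were raised and none of another list led, a limit set after the clusters were seen. Clusters are rebuilt, not the authors'. Doublets were not called. Intervals are exact 95% Clopper-Pearson or conditional binomial bounds, and a count of 0 is read as up to 3 counts. Named genes were the members, the mast and steroid genes on the panel, the 8 genes highest by ratio in gated cells of each section among those with 100 or more counts, the 3 most correlated, and leading genes of clusters; exceptions are stated. The members and lists were chosen with earlier results of these data known. The statistics were tested on simulated data. No column of per-sample values went unmapped.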

Additional observations from a re-analysis of the deposited data

Results flagged for a closer look

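Scin and Car3 differed between sections in opposite directions under the same comparison of gated with other cells. For Scin the ratio was 9.10 in RKP and 0.137 in EKP, where it rested on 1 count in gated cells. For Car3 it was 0.371 in RKP and 9.99 in EKP. The other cells differed between sections as well. In cells with no Cpa3, Scin stood at 426 CPM in RKP and 1151 CPM in EKP. With 1 section per line the difference between sections was not tested.

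Cells with fewer than 20 gene counts, which the comparisons leave out, held both genes above the negative control probes. Cpa3 stood at 1657 CPM in the 7684 such cells of RKP and at 1434 CPM in the 69419 such cells of EKP. Cyp11a1 stood at 961 CPM in RKP and at 858 CPM in EKP. The highest control probe in the same cells had 33.1 CPM in RKP and 174 CPM in EKP. Of these cells, 13 in RKP and 9 in EKP had 3 or more Cpa3 counts.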

How the results depend on the processing

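Of 71 alternative values for 22 results, 27 stayed within the counting interval of the reported value (or, for counts of genes, within 1.5 times), 41 moved beyond it and 3 changed direction; the cause was not tested beyond what each construction shows. The section ratio of Cpa3 (2.05) was 2.94 as counts per cell, 2.71 over cells of 20 or more counts and turned to 0.664 with every cell weighted alike. That of Cyp11a1 (0.790) turned to 1.13 as counts per cell, and was 0.622 with cells weighted alike and 0.857 over cells of 20 or more counts. Outside the gate, leaving out cluster 6 gave 1.93 for Cpa3 and 0.695 for Cyp11a1, and a minimum of 40 gave 1.79 for Cpa3; these settings and the stricter naming below were chosen after seeing the data. The share of cells with Cpa3, RKP over EKP (1.51), was 1.83 thinned, 1.35 at a minimum of 10 and 2.05 at 40, and at 3 or more counts (8.60) it was 10.97 at 40. The share with Cyp11a1 (0.678) was 0.723 at 10 and turned to 1.02 thinned. Co-detection after thinning was 38.7 times expectation in RKP and 9.72 in EKP, and 3.67 in EKP within depth bins. A gate of 2, of 5 and of 3 or more Cyp11a1 held 74.99%, 52.2% and 27.2% of Cpa3 counts in RKP, and 30.3%, 15.01% and 5.08% in EKP. The EKP share was 16.2% over all cells and 23.8% at a minimum of 40. For Cyp11a1 the gates of 2 and 5 held 32.7% and 23.3% in RKP, and 2.19% and 1.24% in EKP. Epithelial-like cells held, outside the gate, a share of Cpa3 of 19.98% in RKP and 8.82% in EKP at resolution 2, and 32.6% in RKP and 20.8% in EKP by marker counts without clusters. For Cyp11a1 these were 30.9% in RKP and 73.3% in EKP, and 40.96% in RKP and 78.8% in EKP. Asking for an epithelial marker among the leading genes, which drops cluster 12, gave 2.95% of Cpa3 and 5.92% of Cyp11a1 in RKP. The epithelial level of Cyp11a1, RKP over EKP (0.237), was 0.290 by marker counts and 0.171 by that stricter naming. With a gate of 5, cells of 1 Cpa3 count within 5 places of a gated cell were 17.3% in RKP and 2.39% in EKP. A gate on other mast genes was not run. Alox5ap was also in 38.2% of other RKP cells and 27.3% of other EKP cells, and Mitf in 11.2% and 10.2%. Ltc4s was in 3.83% of other RKP cells and 2.99% of other EKP cells, and was not higher in gated cells. No paired analysis was possible because there is 1 section per line and no test.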
